A study of Mus musculus with 14 samples.

Results

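The tumours of LysM-Cre host mice are described here gene by gene: 3 from hosts with a GPX4 knockout in their myeloid cells (KO; tumours B4, B5 and B6) and 3 from GPX4 wild-type hosts (WT; B1, B2 and B3). They were chosen by the treatment label and are 6 of the 12 tumours, and of the 14 samples, of an exome study in mice. The other tumours, A1, A2, A3, A7, A8 and A9, grew in soft or stiff collagen gels and serve only as a point of reference. The remaining 2 samples, tails of wild-type Balb/c mice, were not analysed here.

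All 6 host tumours share their origin. A p53null mammary fragment from a Balb/c donor aged 8 to 10 weeks was implanted into the mammary fat pad of each LysM-Cre host, and each tumour was taken when its largest diameter was at most 2 cm. The protocol gives recipients aged 3 to 4 weeks for the gel experiment and refers back to it for the LysM-Cre hosts, whose strain it does not give. Cre was thus present in the host and not in the implanted cells, and both groups carried it. The Lyz2 promoter drives LysM-Cre in macrophages, monocytes and neutrophils, so other host cells and the tumour cells kept GPX4. The DNA was extracted from whole tumour tissue, and the counts cannot tell variants of implanted cells from those of host cells. Counts of DNA variants hold no expression, so the tissue label could not be checked against marker genes.

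GPX4 is a selenoprotein that reduces lipid hydroperoxides in membranes with the help of glutathione, and cells that lose it are prone to ferroptosis, an iron-dependent death by lipid peroxidation. Lipid peroxides break down into reactive aldehydes such as malondialdehyde and 4-hydroxynonenal, which can leave a cell and form adducts on the DNA of others. Macrophages are abundant in mammary tumours. The comparison of KO with WT hosts therefore addresses whether lipid peroxidation in myeloid cells bears on the variants found in the tumour.

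The values are numbers of called variants per gene. Each was sorted by snpEff, a program that predicts the effect of a variant on a transcript, into HIGH impact (frameshift, stop gained, splice donor or acceptor), MODERATE (missense, in-frame), LOW (synonymous, splice region) and MODIFIER (intron, flanking, untranslated). A protein-altering variant is one of HIGH or MODERATE impact. The tables hold no position, base change, allele fraction or read depth. A gene with no row was taken as 0, and a variant can be inherited, somatic or a false call. No sequence is printed, because no file ties a variant to a base. The labels say only that the tumours are separate samples, so the tests measure the spread between these tumours. With 3 tumours against 3 there are 20 assignments, and an exact permutation test cannot give a p below 0.1.

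Trp53, the tumour suppressor that the implanted fragment lacks, had 2 variants of HIGH or MODERATE impact in B1, 1 in B4 and 0 in the other host tumours. Gpx4 and Lyz2 had 0 coding variants in every host tumour. The KO allele is a deletion in host cells, and counts of this kind do not check the labels.

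B5, from a KO host, stood apart before any comparison of groups. Of the 26 effect types with a count in these tumours, 17 had at least 50 variants in each tumour. B5 was the lowest tumour in 17 of these 17, B1 the highest in 16, and B6 the highest in 1. The number of genes with a protein-altering variant was 5385 in B1, 4879 in B2, 4466 in B3, 4033 in B4, 3507 in B5 and 5077 in B6. B6, also from a KO host, lay above both B2 and B3, and the groups overlapped. The KO mean was 4206 ± 799 (SD, n = 3) and the WT mean 4910 ± 460 (SD, n = 3), a difference of -14.3% (exact permutation p = 0.3). The mean number of protein-altering variants per altered gene was also lower in KO tumours, 2.66 ± 0.275 against 2.92 ± 0.132 (exact permutation p = 0.3). The groups overlapped here too, with 3.07, 2.88 and 2.82 in B1, B2 and B3 and 2.69, 2.37 and 2.92 in B4, B5 and B6. Coding variants (HIGH, MODERATE or LOW) differed by -19.9%. That difference of -4757 per tumour was -2430 without B5, -3012 without B1 and -7548 without B6.

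Of 20 gene families, B5 had the lowest count in 17, the lowest share of its protein-altering variants in 7 and the highest share in 5. Olfactory receptors, the odour sensors of the nose, made up 3.73% in B5 and 3.13% to 3.69% in the other tumours, so that B5 was the highest. Genes whose symbol is a model number held 3.23% of its protein-altering variants and 4.84% to 5.76% of those of the other 5 host tumours. The vomeronasal receptors, pheromone sensors that lie in clusters of close copies, had 59 variants in B5 against 120 to 211 in the others, B1 being the highest. Ccne1, which encodes the G1/S regulator cyclin E1, had 27, 27 and 32 in WT tumours, 25 and 21 in B4 and B6, and 0 in B5. Gel tumour A9 was low there too, with 1 against 23 to 31 in the other gel tumours. Variants called in close copies are uncertain, and the part of read depth in these counts was not tested.

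Missense variants, which exchange 1 amino acid, numbered 11194, 9493 and 8714 in the WT tumours B1, B2 and B3 and 7448, 5977 and 10143 in the KO tumours B4, B5 and B6. B6 lay within the WT range and the other KO tumours below it. Frameshift variants numbered 3382, 2862 and 2416 in WT tumours and 2158, 1380 and 2893 in KO tumours, in the same order of tumours. Stop-gained variants numbered 751, 653 and 546 against 491, 410 and 679. The KO mean differed from the WT mean by -19.8% for missense, -25.7% for frameshift and -19.0% for stop-gained variants (exact permutation p = 0.3 each). Losses of the stop codon, 41, 42 and 36 in WT and 34, 17 and 38 in KO tumours, gave the smallest p of any type by count (exact permutation p = 0.2). Across all 26 types, 23 had a lower and 3 a higher mean count in KO tumours, and 0 were without overlap (smallest exact permutation p 0.2, adjusted 0.433). The 3 with a higher mean were rare: losses of an exon (0 to 5 per tumour) and truncations of the 5' and 3' untranslated regions (0 to 3 and 0 to 2).

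As shares of a tumour's total, most of these gaps narrowed. Intron variants made up 69.9%, 69.4% and 69.1% of all effects in WT tumours and 67.9%, 67.7% and 70.0% in KO tumours. B6 was again on the WT side. Of the 26 shares of all effects, 12 had a lower and 14 a higher mean in KO tumours (smallest exact permutation p 0.1, adjusted 0.867). Those of disruptive in-frame deletions and of retained stop codons did not overlap and were lower in KO tumours. Disruptive in-frame deletions, which remove whole codons and alter a neighbouring one, made up 0.0310%, 0.0297% and 0.0293% of all effects in WT tumours and 0.0292%, 0.0248% and 0.0286% in KO tumours. The difference of -0.0025 percentage points was -0.0011 without B5. Retained stop codons were few, between 7 and 18 variants per tumour.

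Among coding effects alone, synonymous variants, which leave the protein unchanged, were the 1 type of 16 whose shares did not overlap. They made up 30.6%, 30.6% and 31.0% of coding effects in WT tumours and 31.4%, 33.4% and 31.1% in KO tumours. All KO tumours were above all WT tumours, with B6 and B3 close to each other and B5 far above. The means were 32.0% ± 1.27 (SD, n = 3) and 30.8% ± 0.201 (SD, n = 3; exact permutation p = 0.1, the smallest possible, adjusted 0.64). Without B5 the difference of 1.22 percentage points was 0.492 (exact permutation p = 0.2). Frameshift variants made up 12.04%, 11.97% and 11.24% in WT tumours and 11.5%, 9.34% and 11.4% in KO tumours, with B5 alone far below. Missense shares lay between 39.7% and 40.6% in all 6 tumours, with means of 40.1% in KO and 40.0% in WT hosts. In-frame deletions and insertions and frameshifts had lower mean shares of coding effects in KO tumours, and B5 had the lowest share of each.

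**Figure D1:**
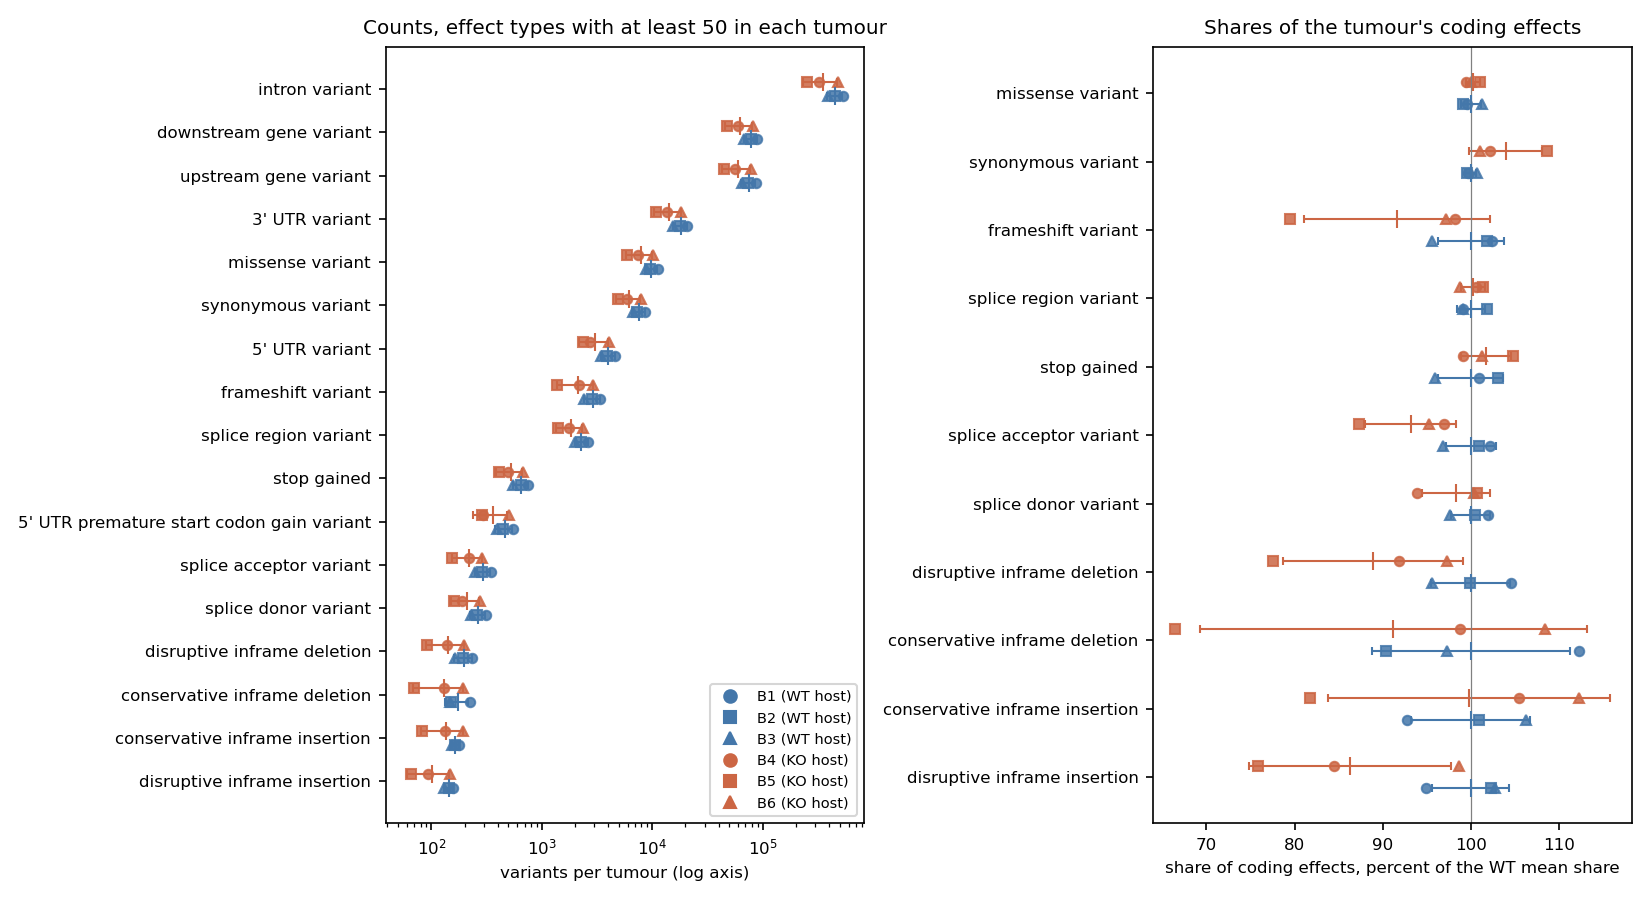
Variants per tumour for the 17 effect types with at least 50 in each tumour (left, log axis) and shares of coding effects for the more frequent coding types, each as a percent of the mean share in WT hosts (right). Points are tumours, vertical ticks group means and bars SDs (n = 3); B5 is the lowest of the 6 in each of the 17 types at left, and the synonymous shares of KO tumours lie above those of WT tumours at right.

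The same genes recurred in many tumours. Of the 9369 genes with a protein-altering variant in any host tumour, 1855 had one in all 6 and 3312 in a single tumour. The genes altered in a single tumour numbered 740, 607 and 475 in B1, B2 and B3 and 351, 474 and 665 in B4, B5 and B6. Tumours of 1 group did not stand apart by the genes they shared. A pair of WT tumours shared 49.0% to 51.3% of the genes altered in either, a pair of KO tumours 41.7% to 47.8%, and a KO with a WT tumour 40.5% to 51.0%. Protein-altering variants in the genes altered in all 6 tumours differed by -1234 per tumour between KO and WT means (-14.8%), and those in other altered genes by -1826 (-30.3%; exact permutation p = 0.3 for both). In B5 71.6% of the protein-altering variants lay in genes altered in all 6, against 55.4% to 65.1% in the other tumours. The set requires a variant in every tumour, and these percentages ran in the reverse order of the tumours' numbers of altered genes.

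Between KO and WT hosts no gene was called. The quasi-likelihood test of edgeR, with Benjamini-Hochberg adjustment over the 5309 genes with at least 3 protein-altering variants, called 0 at an adjusted p under 0.05 (0.0%) on the counts, and 0 (0.0%) on the counts scaled to each tumour's protein-altering total. With no filter on low counts, edgeR called 7 genes on the scaled counts, all lower in KO tumours, and 0 on the counts. At an unadjusted p under 0.05, 26 genes had higher counts in KO tumours (0.49%) and 173 lower counts (3.26%). Genes on the lower side numbered 83, 112 and 125 without B1, B2 and B3, and 135, 104 and 209 without B4, B5 and B6. Those on the higher side numbered 25, 29 and 16 without B1, B2 and B3, and 16, 18 and 10 without B4, B5 and B6. On the scaled counts of all 6 tumours, 69 genes were higher (1.3%) and 127 lower (2.39%). DESeq2 called 0 on either scale, with 28 genes at an unadjusted p under 0.05 on the counts and 22 on the scaled counts. In 39 genes all KO counts lay above all WT counts (0.735%), and in 226 all lay below (4.26%). As shares of the tumour's total the sides were nearly even, with 201 genes (3.79%) and 208 genes (3.92%).

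Protein-altering variants are counted for the genes with the smallest edgeR p on the lower side. Among them, Htr2b, a serotonin receptor coupled to Gq, had 4, 3 and 4 in the WT tumours and 0 in every KO tumour (adjusted p = 1). The gel tumours had 4 or 5 each, so the KO tumours alone of the 12 had none. Gsg1, a germ cell gene, had 6, 4 and 4 in WT tumours and 0 in KO tumours, and among gel tumours A3 had 6 and the other gel tumours 0. Ubr1, an E3 ligase that recognises the N-terminal residues of proteins to be degraded, had 11, 13 and 9 in WT tumours and 2, 1 and 4 in KO tumours. The lowest WT tumour was above the highest KO tumour, and edgeR gave a log2 fold change of -2.18 (SE 0.40, adjusted p = 1). In gel tumours Ubr1 had 1 to 6, close to the KO range. Htr6, another serotonin receptor, had 3, 7 and 6 in WT tumours and 1 in each KO tumour, with 0 to 2 in gel tumours.

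Several genes with small p on the lower side carried few protein-altering variants. Ccdc150 had 2, 2 and 3 in WT tumours and 0 in KO tumours, while each gel tumour had 1 to 3. Cd5l, a protein secreted by macrophages that binds lipids, had 2 in each WT tumour and 0 in each KO tumour, and among gel tumours 2 in A8 and 0 in the other gel tumours. Slc22a18, a transporter of the organic cation family, had 2, 3 and 2 in WT tumours and 0 in the other 9 tumours of the study. Triml1, a tripartite motif gene, had the same counts in host tumours, and 3 of 6 gel tumours had 1 or 2.

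On the scaled counts the lower side was led by genes with more variants. Dock10, an activator of the small GTPase Cdc42, had 17, 5 and 9 in WT tumours and 0, 1 and 0 in KO tumours (edgeR log2 fold change of the share -4.21, SE 0.90, adjusted p = 0.929, or 0.000386 with no filter). B1 was the highest and B4 and B6 had none, and gel tumours had 10 to 13 except A2 with 0. Ugt1a1, which conjugates bilirubin with glucuronic acid, had 10, 18 and 13 against 2, 0 and 4 (edgeR log2 fold change of the share -2.37, SE 0.58, adjusted p = 0.929, or 0.00803 with no filter). Ugt1a10, which shares its last exons with Ugt1a1, had 10, 5 and 10 against 1, 0 and 2, and a variant in the shared exons counts in both. Dhx16, an RNA helicase of the spliceosome, had 11, 8 and 5 against 0, 1 and 2. In each of these genes every WT tumour was above every KO tumour. Flywch1, a zinc finger gene, had 6, 2 and 5 in WT tumours and 0 in KO tumours. Rsf1, a chromatin remodelling factor, had 4, 2 and 2 against 0, and Apon, an apolipoprotein, had 5, 1 and 3 against 0.

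On the higher side, Cnot3, a subunit of the CCR4-NOT deadenylase that shortens mRNA tails, had 0 protein-altering variants in each WT tumour and 2 in each KO tumour (edgeR adjusted p = 1). Gel tumours had 2 to 4, so that the WT tumours alone of the 12 had none. Tmc4, a membrane channel gene, had 0, 0 and 1 in WT tumours and 2, 3 and 4 in KO tumours, with 2 to 5 in gel tumours. Adamtsl3, a secreted matrix protein, had 1, 0 and 0 against 2, 3 and 3. In both of these the lowest KO tumour was above the highest WT tumour.

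The other leading genes of the higher side had 0 protein-altering variants in each WT tumour. Tmem37, related to calcium channel gamma subunits, had 6, 2 and 2 in KO tumours, and Prdx1, a peroxiredoxin that reduces peroxides, had 4, 1 and 4. Bri3bp had 1, 4 and 4. Slc28a1, a nucleoside transporter, had 1, 1 and 5. Prdx1, Bri3bp and Slc28a1 had 0 in every gel tumour too, and so had protein-altering variants in KO tumours alone of the 12. WT tumours held other variants in these genes, such as 48, 30 and 13 of any kind in Prdx1. Ccne2, which encodes cyclin E2, had 1, 2 and 3, and 3 of 6 gel tumours had 1 or 2. Kdm3b, a histone demethylase, Foxe1, a forkhead transcription factor, C1qtnf3, a secreted protein, and Myrf, the regulator of myelin genes, had 1 or 2 in each KO tumour. Of these 4, Foxe1 was altered in all 6 gel tumours and C1qtnf3 in 1.

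**Figure D2:**
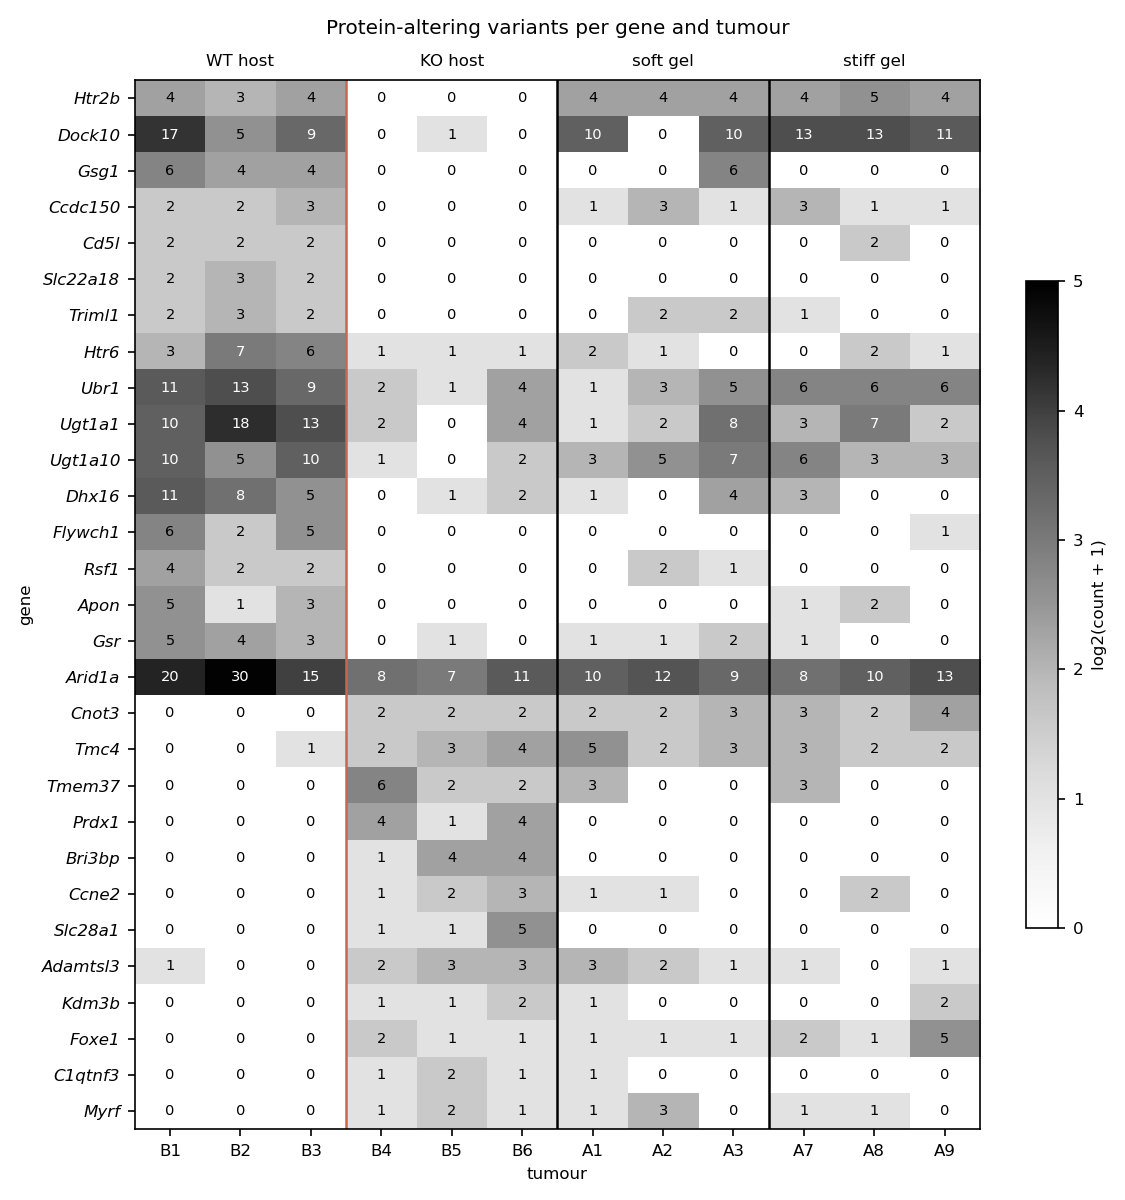
Protein-altering variants of 29 genes (rows) in each of the 12 tumours (columns), with the count printed in each cell and its shade on a log2(count + 1) scale. The upper rows are genes with lower and the lower rows genes with higher counts in KO than in WT hosts; the gel tumours at right resemble WT tumours for Htr2b and KO tumours for Cnot3.

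A gene altered in all 3 tumours of one group and in none of the other is called all-or-none here. Of the 9369 genes altered in any host tumour, 23 were of this kind with variants only in KO tumours (0.245%) and 104 with variants only in WT tumours (1.11%). Most were altered elsewhere in the study: 16 of the 23 and 80 of the 104 had a variant in at least 1 gel tumour, and 2 and 5 in all 6 gel tumours. These counts moved with any 1 tumour. Those with variants only in KO tumours numbered 105 without B4, 142 without B5, 66 without B6, and 44, 49 and 37 without B1, B2 and B3. Those with variants only in WT tumours numbered 217, 279 and 313 without B1, B2 and B3, and 182, 144 and 255 without B4, B5 and B6. All these counts use fewer tumours, which by itself lets more genes qualify.

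Stop-gained and frameshift variants, which shorten or scramble a protein, were searched in the same way. Of 1420 genes with a stop gained in any host tumour, 2 had one in all KO and no WT tumours (0.141%). The reverse held for 12 (0.845%). All 12 of the WT side also had a stop gained in at least 1 gel tumour, and 0 of the 2 of the KO side did. Angptl1, a secreted angiopoietin-like protein, had 1 stop gained in each KO tumour and 0 in each WT tumour, and the other of the 2 belonged to a multigene family. On the WT side, Dock10 had 3, 2 and 2 and Birc6, a giant inhibitor of apoptosis, 2, 2 and 1. Ubr4, a second N-recognin, had 3, 1 and 1. The mitotic kinesin Kif2c, the complement protease C1ra and the Wnt receptor Fzd9 had 1 in each WT tumour. Each of these 6 genes had 0 in each KO tumour.

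Of 4287 genes with a frameshift in any host tumour, 7 had one in all KO and no WT tumours (0.163%). The reverse held for 56 (1.31%). At least 1 gel tumour had a frameshift in 4 of these 7 genes and in 35 of these 56. On the KO side were Clasp2, which stabilises microtubule ends, with 1, 2 and 1, Slc28a1 with 1, 1 and 3, and Stt3b, a catalytic subunit of N-glycosylation, with 1, 1 and 2. Sprtn, the protease that degrades DNA-protein crosslinks, Rest, a repressor of neuronal genes, and Slc7a7, an amino acid transporter, had 1 in each KO tumour. Rest had 1 HIGH variant in every host tumour, classed as a stop gained in each WT tumour and as a frameshift in each KO tumour. On the WT side, Dnah12, an axonemal dynein, had 4, 1 and 2, Dop1b had 4, 1 and 1, Senp6, a SUMO protease, had 1, 3 and 2, and Rasal2, a Ras GTPase-activating protein, had 2, 2 and 3. Helz, an RNA helicase, had 1, 4 and 1, and Dhx16 had 1, 3 and 1. The tables do not say whether these are the same variant in each tumour.

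Some of the named genes, such as Cnot3 and Tmc4, lay near each other in the genome. To see this, all variants, introns included, were summed over windows of 10 neighbouring genes and divided by all variants of the tumour. Of 1166 windows with at least 600 variants, 150 had shares without overlap between the groups (12.9%), 68 higher and 82 lower in KO tumours. The median log2 ratio of KO to WT over windows was 0.01, and the 5th and 95th percentiles were -0.30 and 0.24. A window beyond 1 in either direction was found 5 times, and these fell into 3 neighbourhoods. As described below, the neighbourhoods also take in windows that were not beyond 1. The window from Tfpt to Gm15448, which holds Cnot3 and Tmc4, had a log2 ratio of 0.53. That from A530032D15Rik to Gpr55, in the first neighbourhood, had -0.40 and overlapped. The windows and neighbourhoods were chosen by these values, which are therefore given as a description with no test.

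The first neighbourhood ran over 60 genes from Cul3 to Atg16l1 and held Dock10 and Htr2b. Summed over it, all variants numbered 1740, 921 and 1314 in B1, B2 and B3 and 495, 243 and 685 in B4, B5 and B6. Every KO tumour was below every WT tumour, and gel tumours had 921 to 1245. Coding variants were 76, 30 and 50 against 14, 11 and 13. By variants of any kind, 24 of the 60 genes had all KO counts below all WT counts and 0 had them above. The share of all genes without overlap was worked out for protein-altering variants only, so no background stands beside that count. By protein-altering variants, 3 of the 60 genes were below without overlap and 0 above. Over the 5309 genes tested, 4.26% were below and 0.735% above. The 60 also include genes with too few variants to be tested.

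The low counts were not spread evenly along it. Dock10 had 319, 98 and 254 variants of any kind in WT tumours and 10, 12 and 11 in KO tumours, and its neighbour Nyap2, an adaptor of phosphoinositide 3-kinase in neurons, had 114, 20 and 64 against 1, 4 and 10. Gel tumours had 194 to 226 in Dock10 except A2 with 17. The next genes along, such as the basement membrane collagen genes Col4a4 (9, 4 and 10 against 5, 7 and 9) and Col4a3 (16, 11 and 11 against 14, 8 and 11), overlapped between the groups. Further on, C130026I21Rik, a gene with close copies, had 372, 309 and 257 in WT tumours and 245, 34 and 318 in KO tumours. B5 alone of the host tumours was low, and among gel tumours A9 was low too, with 67 against 236 to 327. From Psmd1 to Nmur1 the groups parted again over 6 genes in a row. Psmd1, a subunit of the proteasome, had 66, 24 and 52 against 6, 6 and 4. Htr2b had 40, 15 and 29 against 0, 1 and 0, and Armc9, a ciliary gene, had 73, 16 and 60 against 2, 7 and 7. Ncl, which encodes nucleolin, had 27, 13 and 17 against 2 in each KO tumour. At the far end Inpp5d, the lipid phosphatase SHIP1 of blood cells, had 56, 21 and 55 against 3, 8 and 8, and the autophagy gene Atg16l1 37, 8 and 18 against 4, 2 and 1. B2 was the lowest WT tumour in each of these last 6 genes and in Dock10 and Nyap2. Protein-altering variants were few beside these numbers, 51, 22 and 30 against 9, 5 and 7 over the whole neighbourhood.

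The second neighbourhood ran over 20 genes from AU018091 to Gm15448, held Cnot3 and Tmc4, and went the other way. All variants numbered 420, 384 and 305 in WT tumours and 580, 470 and 705 in KO tumours, and every KO tumour was above every WT tumour. In 13 genes all KO counts were above all WT counts, and in 1, Mboat7, all were below. As for the first neighbourhood, no share over all genes stands beside these numbers. By protein-altering variants, 3 of the 20 genes were above without overlap and 0 below. Over the 5309 genes tested, 0.735% were above and 4.26% below. Cacng7, an auxiliary subunit of AMPA receptors, had 9, 7 and 3 variants in WT tumours and 80, 62 and 81 in KO tumours. Ndufa3, a subunit of respiratory complex I, had 1, 1 and 2 against 29, 31 and 32. Tfpt had 3, 3 and 5 against 38, 31 and 40, and the splicing factor gene Prpf31 2, 1 and 2 against 19, 17 and 24. Cnot3 had 1, 0 and 2 against 15, 20 and 16. WT tumours had fewer than 10 in each of these genes, and gel tumours resembled the KO tumours, with 49 to 70 in Cacng7 and 25 to 31 in Ndufa3. Past Tmc4 the groups met: Rps9, a ribosomal protein gene, had 58, 54 and 38 against 32, 45 and 52, and Pirb, a leukocyte receptor gene with close copies, 129, 145 and 116 against 124, 62 and 137. Only 16 to 31 of a tumour's variants here were protein-altering.

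The third neighbourhood, 10 genes from Met to Kcnd2, was high in the WT tumour B3 too. All variants numbered 747, 620 and 1916 in WT tumours and 2160, 2234 and 2855 in KO tumours, so that B3 was near the KO tumours. Met, the receptor of hepatocyte growth factor, had 378, 309 and 1198 against 1044, 1197 and 1200. B3 lay within the KO range for Met, and in Wnt2, a secreted Wnt ligand, B3 joined B1 and B2 with 42 against 77 and 58, below 177, 251 and 306 in KO tumours. Gel tumours had 611 to 2421 over these genes, A2 being the lowest. Nearly all of these variants lay outside the coding sequence, for protein-altering variants numbered 17, 16 and 17 against 17, 22 and 19.

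**Figure D3:**
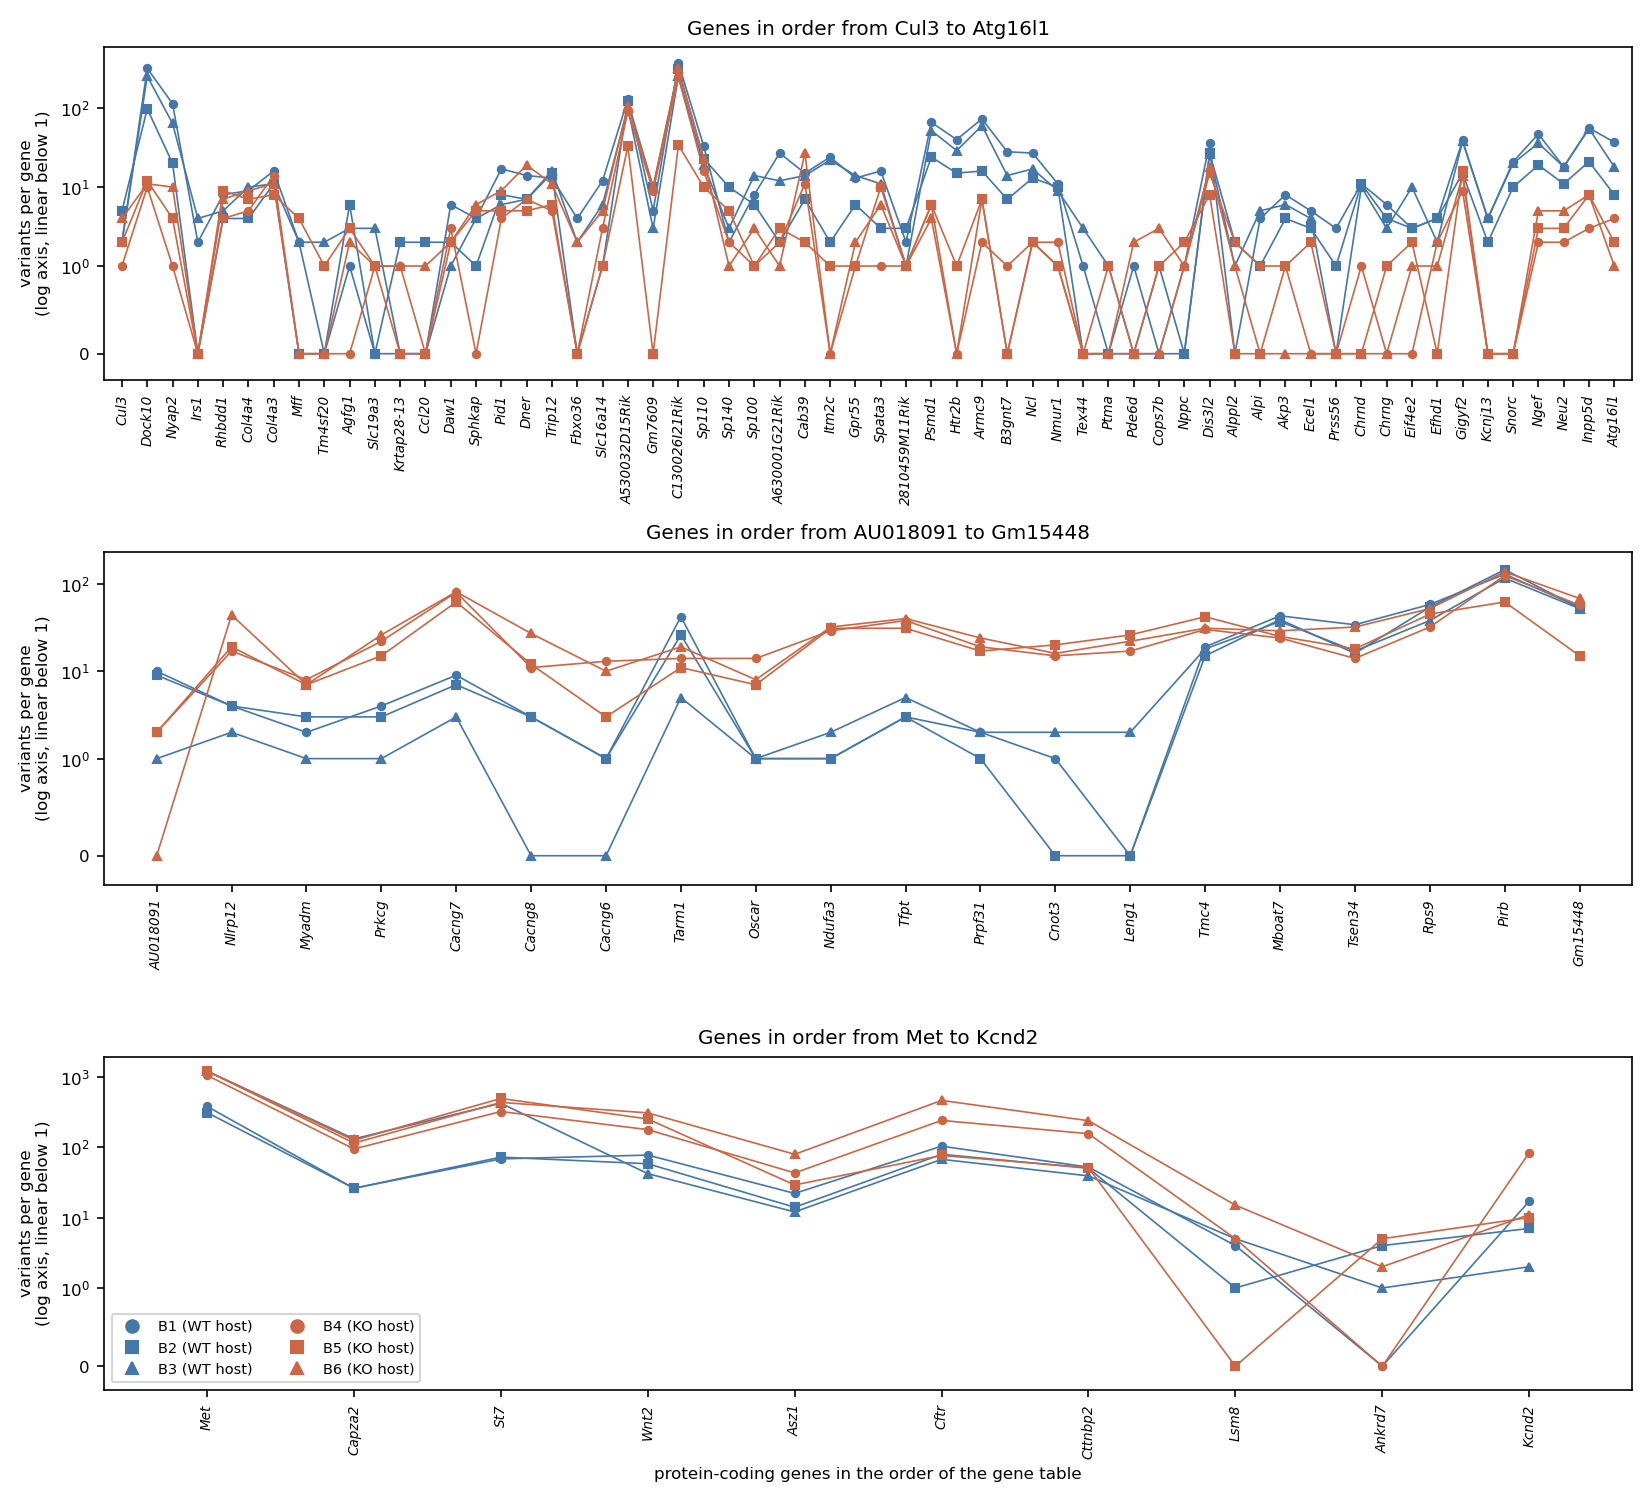
Variants of any kind per gene (vertical axis, log above 1 and linear below it) for genes in their order along the 3 neighbourhoods, with a line and marker for each host tumour. WT tumours (blue) lie above KO tumours (red) at Dock10 and from Psmd1 to Nmur1, KO tumours lie above WT tumours from Nlrp12 to Cacng6 and from Oscar to Tmc4, and B3 follows the KO tumours from Met to St7 only.

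The genes around the host's own engineered loci were looked up as well. In the 20 protein-coding genes on each side of Lyz2, whose promoter drives Cre in both groups, protein-altering variants numbered 15, 13 and 8 in WT tumours and 7, 2 and 5 in KO tumours. Coding variants numbered 20, 21 and 18 against 9, 4 and 10, and every KO tumour was below every WT tumour on either measure. How often other stretches of this length part in this way was not worked out. With introns and flanks included the counts were 755, 671 and 551 against 325, 260 and 694, and B6 lay within the WT range. Grip1 held a large part of these, with 278, 270 and 244 against 113, 103 and 260. By protein-altering variants no gene there stood out. Cand1, an assembly factor of cullin ligases, had 3, 1 and 2 against 2, 0 and 0, and Slc35e3 had 2, 0 and 0 against 1, 0 and 0. In the 20 genes on each side of Gpx4, protein-altering variants numbered 4, 5 and 3 in WT tumours and 4, 8 and 6 in KO tumours, and the groups overlapped.

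Gene lists for the pathways that the question touches were described by their counts. Of all 5309 genes tested, 1417 had a higher, 3096 a lower and 796 an equal mean in KO tumours, with a median difference of -0.333 variants, and each list is read beside these numbers. Summed over its members, 11 of the 14 lists had a lower mean count in KO tumours, and 4 a lower mean share of the tumour's protein-altering total. No list member passed the edgeR test over all genes. Members enter these counts when they have at least 3 variants over the 6 tumours, so a gene altered in 1 group alone enters through that group.

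The enzymes that defend against lipid peroxides by glutathione, thioredoxin and coenzyme Q were a list of 38, of which 15 had a protein-altering variant and 10 were tested, 5 higher and 5 lower in KO tumours (median difference 0). Summed over the list, WT tumours had 13, 12 and 14 variants and KO tumours 12, 5 and 28. B6 held more than any WT tumour and B5 fewer, and the means were 15.0 ± 11.8 and 13.0 ± 1.00 (SD, n = 3). Gsr, glutathione reductase, which regenerates the cofactor of GPX4, had 5, 4 and 3 in WT tumours and 0, 1 and 0 in KO tumours. Its WT counts were all above its KO counts, and gel tumours had 0 to 2. Prdx1, given above, went the opposite way. Dhodh, which reduces coenzyme Q in mitochondria, had 0 in each WT tumour and 1, 1 and 3 in KO tumours. Gsr, Prdx1 and Dhodh had an unadjusted edgeR p under 0.05 (0.0107, 0.0274 and 0.0356), which 0.49% of all genes tested had on the higher and 3.26% on the lower side. With 0 in WT tumours, Prdx1 and Dhodh entered the test only through the KO tumours. Gpx8, a glutathione peroxidase of the endoplasmic reticulum, had 3, 4 and 3 against 3, 1 and 2. Gch1, which starts the synthesis of the antioxidant tetrahydrobiopterin, had 0 in WT tumours and 2, 0 and 5 in KO tumours.

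Genes that make, remodel and oxygenate polyunsaturated lipids or handle iron had 27, 17 and 10 variants in WT tumours and 14 in each KO tumour, and the WT tumours lay on either side. Of 12 tested, 3 were higher and 8 lower (median difference -0.333). Tfrc, the transferrin receptor, had 3, 3 and 5 against 4, 6 and 3. Fth1, the ferritin heavy chain that stores iron, had 4, 0 and 0 against 4, 1 and 3. Genes that remove aldehydes had 13 in each WT tumour and 12, 8 and 12 in KO tumours, without overlap but by 1 variant in B4 and B6. The difference of -2.33 was -1.0 without B5, and as a mean share of the tumour's total the list was higher in KO tumours. Of 8 tested, 1 was higher and 5 lower (median difference -0.5). Gsta4, the transferase that conjugates 4-hydroxynonenal with glutathione, had 3, 3 and 2 against 2, 1 and 3.

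DNA repair lists showed no common direction. Base excision repair genes, which remove oxidised bases, had 10, 6 and 8 in WT tumours and 4, 5 and 16 in KO tumours, with B6 the highest and B4 the lowest. Tdg, a glycosylase of that pathway, had 0, 0 and 4 against 1, 0 and 6, and its mean was lower in KO tumours when B6 was left out. Homologous recombination and crosslink repair genes had 16, 12 and 6 against 15, 8 and 15. In that list Fanca, of the Fanconi core complex, had 2, 0 and 3 against 4, 3 and 6. Mismatch repair genes and replicative polymerases had 33, 29 and 22 against 23, 19 and 25, and Msh6, which recognises mismatched bases, had 13, 15 and 10 against 9 in each KO tumour. End joining genes had 14, 13 and 13 against 14, 12 and 9, of which Trp53bp1, which protects broken ends, held 8 in every tumour. Nucleotide excision and translesion genes had 28, 28 and 29 against 19, 15 and 33, with B6 above all WT tumours. Their largest member by count, the damage sensor Ddb1, had 9, 12 and 12 against 9, 7 and 7. Damage checkpoint genes had 16, 16 and 13 against 14, 6 and 17, and Usp28, a deubiquitinase of the p53 pathway, had 5, 3 and 3 against 3, 3 and 4. In these 5 repair lists and the checkpoint list, the groups overlapped each time.

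Mammary tumour drivers had 181, 171 and 164 protein-altering variants in WT tumours and 137, 80 and 152 in KO tumours, without overlap (172 ± 8.54 against 123 ± 38.0, SD, n = 3). The difference of -49.0 was -27.5 without B5. This was also 1 of the 4 lists with a lower mean share, but as shares the groups overlapped. The KO tumour B4, with 137 of its 10857 protein-altering variants in the list, had a larger share than the WT tumour B1, with 181 of 16544. Of 23 tested members 8 were higher and 15 lower, with the same median difference as all genes, -0.333. Arid1a, a subunit of the SWI/SNF remodelling complex, had 20, 30 and 15 in WT tumours and 8, 7 and 11 in KO tumours (edgeR log2 fold change -1.31, SE 0.35, adjusted p = 1). Gel tumours had 8 to 13, within or near the KO range. Spen, a repressor of hormone and Notch signalling, had 14, 27 and 15 against 8, 8 and 14. The receptor kinase Erbb3 had 2, 1 and 2 against 0. Ccne1, at 0 in B5 alone, gave 28.7 against 15.3, a difference of -13.3. Notch4 had 31, 22 and 30 against 23, 15 and 24, and Tsc2, a brake on mTOR signalling, 30, 26 and 21 against 24, 16 and 28. Apc, the brake on Wnt signalling, overlapped with 12, 9 and 14 against 15, 4 and 8.

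Macrophage and myeloid genes, the list for the cells that lost GPX4 in the host, had 30, 14 and 20 in WT tumours and 25, 9 and 25 in KO tumours. Of 13 tested members 7 were higher and 4 lower (median difference 0.333), the groups overlapped, and B5 was the lowest tumour. On the higher side, Ncf4, a subunit of the phagocyte NADPH oxidase, had 3, 1 and 0 against 3, 0 and 5, and Arg1, the arginase of alternatively activated macrophages, 0 in WT tumours against 2, 0 and 1. The Fc receptor Fcgr3 had 1 in each WT tumour against 3, 1 and 1. Itgam, the integrin CD11b, had 2, 1 and 5 against 2, 0 and 6. The scavenger receptor Msr1 had 7, 1 and 1 against 0, 0 and 1, and Trem2, a lipid sensor of macrophages, 1 in each WT tumour and 0 in each KO tumour.

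Matrix genes had 236, 194 and 191 against 147, 95 and 211, with B6 between the WT tumours. Of 34 tested members 5 were higher and 27 lower (median difference -1.167). Tnxb, tenascin-X, had 53, 60 and 46 against 34, 20 and 61. The collagen gene Col27a1 had 4, 7 and 6 against 2, 1 and 3, and perlecan, Hspg2, 13, 14 and 24 against 14, 2 and 10. Adhesion and mechanosignalling genes had 70, 59 and 55 against 36, 40 and 52, without overlap by count (61.3 ± 7.77 against 42.7 ± 8.33, SD, n = 3). As shares of the tumour's protein-altering total the groups overlapped. The KO tumour B5, with 40 of its 8317 protein-altering variants in the list, had a larger share than the WT tumour B3, with 55 of 12598. Of 21 tested, 5 were higher and 13 lower (median difference -1). Actn1, an actin crosslinker, had 1, 2 and 1 against 0, and Bcar1, an adaptor of focal adhesions, 9, 3 and 2 against 0, 0 and 3. Genes with very long coding sequences had 226, 199 and 175 against 144, 163 and 214, and overlapped.

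**Figure D4:**
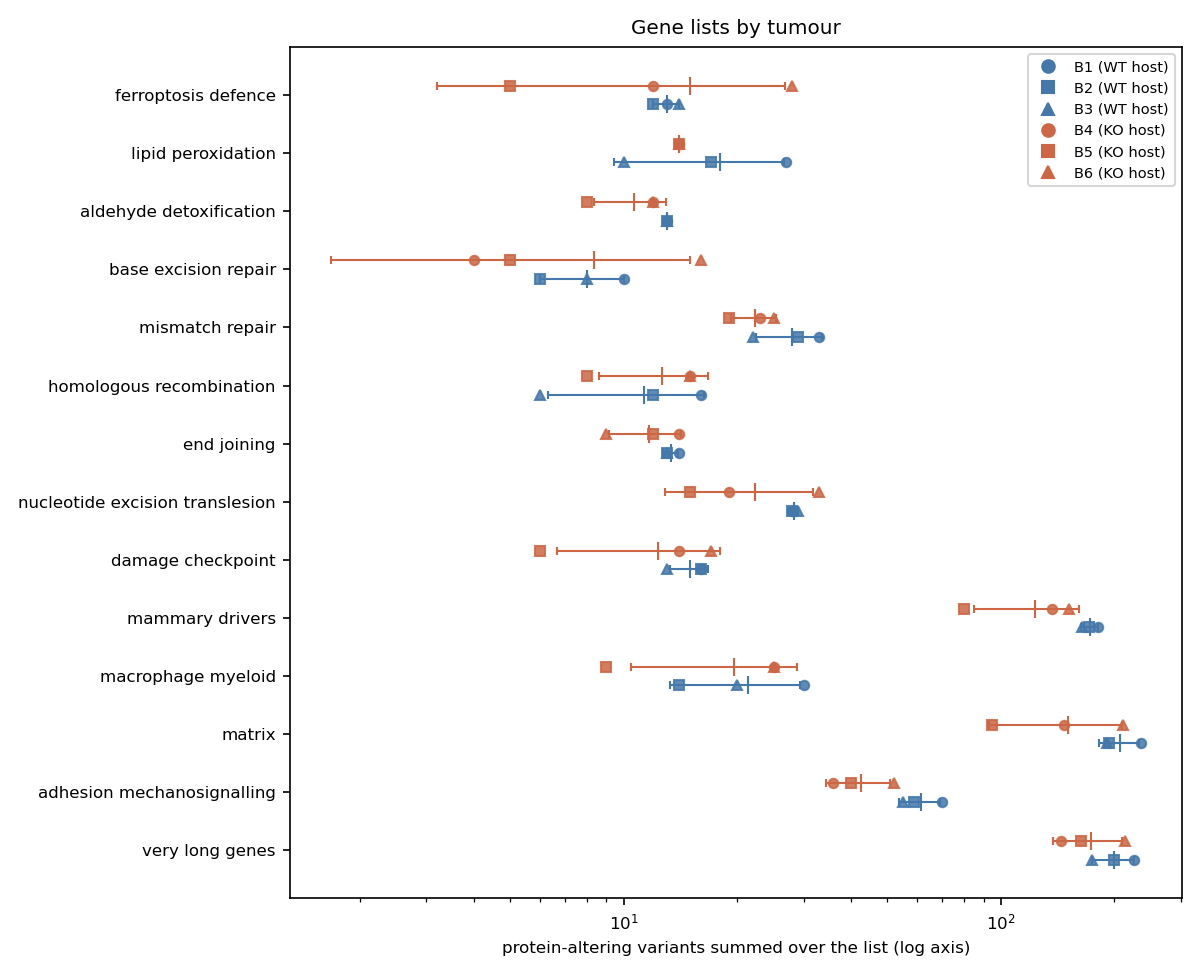
Protein-altering variants summed over each of 14 gene lists (rows) in each host tumour (points, log axis), with group means as vertical ticks and SDs as bars (n = 3). WT and KO points are apart for mammary drivers, adhesion and mechanosignalling, and aldehyde detoxification by count; the other 11 lists overlap.

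Families of close copies were counted as families. Defensins, antimicrobial peptides of epithelia, had 19, 31 and 12 in WT tumours and 9, 4 and 11 in KO tumours. Interferon-induced families had 80, 78 and 67 against 46, 40 and 66, and keratins, the filaments of epithelial cells, had 44, 30 and 27 against 24, 19 and 24. Of the 20 families, these 3 (15.0%) were without overlap by count, the interferon-induced and defensin families by 1 variant in B6. As shares, 5 of the 20 (25.0%) were without overlap. Defensins, interferon-induced families and taste receptors (0.550%, 0.463% and 0.532% of the tumour's total against 0.405%, 0.313% and 0.459%) were on the lower side. On the higher side were cytochrome P450 genes, which oxidise drugs and lipids (0.544%, 0.563% and 0.476% against 0.654%, 0.770% and 0.587%), and the clustered protocadherins (0.556%, 0.713% and 0.691% against 0.875%, 0.938% and 0.816%). By count these last 2 families overlapped, with 92, 100 and 87 protocadherin variants in WT tumours and 95, 78 and 121 in KO tumours.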

How the data were processed

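Exome capture (SureSelectXT mouse kit) and sequencing (150 bp paired reads, over 50x and 6 Gb stated) are per the labels' protocols, which name 2 NovaSeq models and not the tumours run on each. BWA 2.2.1, SAMtools 1.19.2, GATK and GRCm39 are per the submitters' processing notes. For caller settings, filters and matched normals: not given in the sources used here. Variant counts per transcript were deposited by the authors as snpEff tables, per the file headers. Depth per tumour is unknown.

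Rows with the biotype protein_coding were kept (rows with a blank biotype, 9.32% to 9.96% per host tumour, were not), and a gene's count in each class is the maximum over its transcripts. A variant in overlapping genes counts in each. Exact permutation tests of group means were two-sided and Benjamini-Hochberg adjusted over the effect types of a scale. Genes summing to at least 3 went into the quasi-likelihood test of edgeR 4.0.16 (R 4.3.3), with library sizes equal or set to the tumour's protein-altering total. DESeq2 1.42.0 was an alternative, and the adjusted threshold was 0.05. The SE of a fold change, |log2 fold change| divided by the root of F, is approximate. The edgeR step was tested on simulated data. Gene order came from a GRCm38.p6 gene table that holds 96.3% of the files' symbols, used for no coordinates.

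The tumours, lists and tests were chosen with earlier results of these data known. The rule for named genes took 8 genes per direction by smallest edgeR p on counts and on scaled counts, 6 all-or-none genes per direction by difference, up to 6 for stop gained and frameshift, 2 members of every list by difference, and Trp53, Gpx4 and Lyz2. Family members were left out, and a selection is printed. The other list members, the windows, the neighbourhood genes and the gel values beside them were chosen after their values were seen. Some items are not reported here.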

Additional observations from a re-analysis of the deposited data

How the results depend on the processing

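Alternatives used the median over transcripts, all biotypes, no multigene families, no filter, another tool or scaling, other impact classes, or left out 1 tumour. The differences in coding variants (-7548 to -2430 without 1 tumour), protein-altering variants and altered genes stayed below 0 in every alternative run. The edgeR test on counts and DESeq2 called 0 genes in each. On scaled counts with no filter, edgeR called 7 genes, all lower in KO tumours: Btnl4, Dock10, Hebp1, Pkmyt1, Sash1, Tas2r106 and Ugt1a1. Hebp1 (3, 12 and 0 in WT tumours) and Sash1 (9, 0 and 7), both with 0 in each KO tumour, and Pkmyt1 (27, 4 and 22 against 5, 1 and 6) overlapped between the groups. All-or-none genes numbered 23 in KO and 104 in WT tumours, 11 and 49 with at least 2 variants required, and 11 and 65 with HIGH impact only. With LOW impact included, they numbered 42 in KO tumours (0.371%) and 117 in WT tumours (1.03%), of 11320 genes. Leaving out 1 tumour gave 37 to 142 in KO and 144 to 313 in WT tumours. Of the 14 gene lists 11 had a lower summed count in KO tumours, and 4 a lower share of the tumour's total. DESeq2 put 27 genes lower at an unadjusted p under 0.05 on counts and edgeR 173, and 15 against 127 on scaled counts. Leaving out 1 tumour turned the log2 fold change of 4 named genes: Rest (-0.56 to 0.78, above 0 without B1), Slc7a7 (-0.16 to 1.22, below 0 without B1), Stt3b (-0.97 to 0.57, below 0 at -0.19 without B2 and without B6) and Tdg (-1.22 to 4.30, below 0 without B6). Beyond the tumours left out, the cause was not tested.

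No paired analysis was possible because KO and WT hosts share no replicate number. Depth per tumour is unknown, so a low count in B5 and missed variants cannot be told apart. Small counts per gene limit the gene tests, and the 3 tumours per group limit every exact test to a p of at least 0.1.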
